A study of Mus musculus with 15 samples.

Results

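Of the 4178 genes in the deposited table of the mouse ileum, 7 were examined here: the circadian repressors Nr1d1, Nr1d2, Ciart and Bhlhe41, the PAR bZIP output factors Dbp and Tef, and their antagonist Nfil3. They were chosen by symbol, and all 7 were listed. The ileum is the last part of the small intestine, and RNA came from whole tissue of adult C57BL/6 mice raised germ-free. The PBS group (5 mice) received 200 µl of sterile phosphate-buffered saline, the RG group (5 mice) the same volume of Ruminococcus gnavus, a human gut Clostridia species, and the LGG group (5 mice) that of Lacticaseibacillus rhamnosus GG, a probiotic lactobacillus. Ilea were taken 21 days later, so RG and LGG mice each carried a single bacterial species. All groups were otherwise germ-free in origin, and the labels give no sex, cage, batch or hour of collection. The design compares the germ-free ileum with the ileum of mice carrying either species.

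The circadian clock is a feedback loop in which the activators BMAL1 and CLOCK bind E-box sequences and switch on their own repressors. Among these repressor genes are Nr1d1, Nr1d2, Ciart and Bhlhe41. REV-ERB alpha and beta, encoded by Nr1d1 and Nr1d2, are haem-binding nuclear receptors that repress Bmal1 and Nfil3. DBP and TEF activate genes through D-box sequences and carry the rhythm to detoxification and transport genes, while NFIL3, also called E4BP4, represses through the same sequences. In the intestine these transcripts are known to rise and fall over the day, with Dbp and Nr1d1 high when Nfil3 is low, and in mouse small intestinal epithelium NFIL3 is known to link the microbiota to lipid uptake. Because no hour of collection is given, a difference between groups in hour and a response to the bacteria cannot be told apart.

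All 7 genes had a RefSeq promoter window, 250 bases before to 50 after the annotated start, on GRCm38.p6. The windows were searched on both strands for the E-box CACGTG, for AGGTCA, the core hexamer that REV-ERB and ROR receptors bind, and for the D-box forms TTATGTAA and TTACGTAA. These motifs do not overlap in any of the windows. The E-box was present in the windows of Ciart (3 copies), Bhlhe41 (1) and both starts of Tef (1 each), and in 7.15% of 32817 windows of the same length. Windows with 3 or more copies, as in Ciart, made up 0.0884% of all. AGGTCA was present once in Nr1d2 and once, on the opposite strand, in Nfil3, and in 16.3% of all windows. The Nr1d1 and Dbp windows held none of the 4 motifs, and neither D-box form was in a window of any of the 7 genes (TTATGTAA in 0.935% and TTACGTAA in 0.119% of all windows). A match is a sequence description and not a binding site. The windows of Ciart, Tef (the first of its 2 starts), Nr1d2 and Nfil3 are shown, because they hold the E-boxes and hexamers of the repressors and of the opposing bZIP factors, with matched motifs in capitals.
Ciart, chr3:95882179-95882478, minus strand: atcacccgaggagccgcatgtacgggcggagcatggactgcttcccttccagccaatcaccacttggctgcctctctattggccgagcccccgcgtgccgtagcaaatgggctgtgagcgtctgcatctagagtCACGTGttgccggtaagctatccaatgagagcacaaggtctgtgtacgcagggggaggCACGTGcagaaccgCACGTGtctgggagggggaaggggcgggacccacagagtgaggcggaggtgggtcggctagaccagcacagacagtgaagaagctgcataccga
Tef, chr15:81802423-81802722, plus strand: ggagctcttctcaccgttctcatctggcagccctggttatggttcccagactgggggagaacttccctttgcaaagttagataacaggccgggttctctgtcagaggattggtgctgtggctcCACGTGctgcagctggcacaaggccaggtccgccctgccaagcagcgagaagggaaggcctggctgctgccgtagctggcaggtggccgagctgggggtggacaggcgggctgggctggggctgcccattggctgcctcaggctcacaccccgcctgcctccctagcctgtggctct
Nr1d2, chr14:18239057-18239356, minus strand: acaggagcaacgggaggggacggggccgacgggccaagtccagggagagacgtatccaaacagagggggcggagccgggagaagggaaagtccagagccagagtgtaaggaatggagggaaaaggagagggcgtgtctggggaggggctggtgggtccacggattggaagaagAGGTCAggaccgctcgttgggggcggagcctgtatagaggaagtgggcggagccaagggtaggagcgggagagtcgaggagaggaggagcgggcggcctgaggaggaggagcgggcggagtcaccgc
Nfil3, chr13:52980990-52981289, minus strand: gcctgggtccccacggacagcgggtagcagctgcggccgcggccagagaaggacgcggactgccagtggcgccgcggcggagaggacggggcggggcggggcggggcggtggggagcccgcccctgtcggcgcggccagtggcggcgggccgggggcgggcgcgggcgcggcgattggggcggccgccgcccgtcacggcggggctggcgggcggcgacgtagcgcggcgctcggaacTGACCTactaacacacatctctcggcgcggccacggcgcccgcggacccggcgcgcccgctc
The Ciart E-boxes began 116, 58 and 44 bases before the start, and that of Tef 127 bases before it. The hexamer began 77 bases before the start of Nr1d2, and its reverse complement TGACCT 12 bases before that of Nfil3.

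Values are TPM, a share of all transcripts in a library scaled by transcript length by the authors, so levels may be compared between genes. Depth is unknown, since TPM keeps no read counts. Differences are between group means of log2(TPM + 1), from limma over 3530 genes whose TPM reached 1 in 5 or more of the 15 libraries, with their standard error (SE), two-sided tests and Benjamini-Hochberg adjustment (threshold 0.05). Of the 7 genes 6 were tested. Bhlhe41 did not pass this filter, and Ciart passed it through 4 LGG libraries and 1 RG library alone, so its test is biased towards a difference.

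Nr1d1, Nr1d2, Dbp and Tef rose with both bacteria. Nr1d1, Dbp and Tef were also higher with LGG than with RG, though Tef did not pass there with upper-quartile scaling, whereas for Nr1d2 that order depended on the scaling and on single libraries. Nfil3 did not pass in any comparison. Dbp was the member with the largest differences, with a mean about 5.03-fold that of PBS in RG and 23.2-fold in LGG. In RG against PBS 4 of the 6 tested members rose and none fell, where 26.9% of all tested genes passed, 22.8% higher and 4.08% lower. In LGG against PBS 5 rose and none fell, where 71.2% passed, 54.7% higher and 16.5% lower, so that rising with LGG was common to most genes. In RG against LGG 5 were lower and none higher, where 61.6% passed, 8.19% higher and 53.5% lower. Both counts of 5 include Ciart, whose test is biased towards a difference by the filter. With a filter of TPM of at least 5 in 5 libraries, which omits Ciart, 4 members passed in each of these LGG comparisons. For Nr1d1, Nr1d2, Dbp and Tef the exact two-sided permutation p against PBS was 0.00794 with either bacterium, the smallest that 5 mice against 5 can give. The median difference of the 6 was 1.18, 2.02 and -0.88 in these comparisons, and that of all tested genes 0.38, 1.17 and -0.72. Both PBS comparisons share the PBS libraries, and the members were known to differ when they were chosen.

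**Figure D1:**
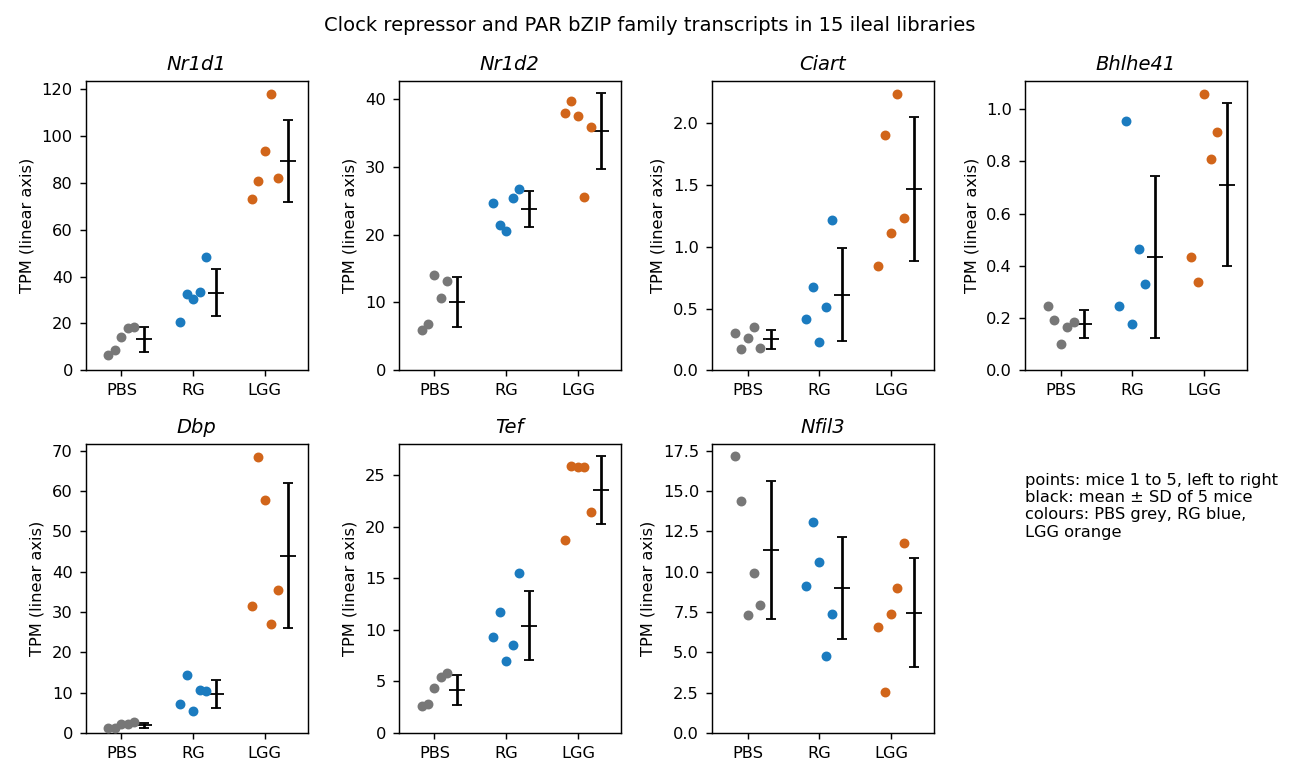
TPM of the 7 genes (linear y axes) in each of the 15 libraries, by group on the x axis, with mice 1 to 5 from left to right and the mean ± SD of 5 mice in black. Nr1d1, Dbp and Tef form 3 separate levels, with PBS lowest and LGG highest, whereas the 3 groups overlap for Nfil3.

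Nr1d1 (ENSMUSG00000020889, chromosome 11, 98767932 to 98775333, minus strand, GRCm38, as for all genes below) encodes REV-ERB alpha and was the most abundant member in RG and LGG. In PBS mice 1 to 5 its level was 6.37, 8.67, 14.3, 18.0 and 18.5 TPM. It was 20.8, 32.7, 30.4, 33.5 and 48.4 TPM in RG and 73.2, 80.8, 93.6, 118 and 82.0 TPM in LGG. No library of 1 group reached the range of another. The log2 difference was 1.32 for RG against PBS (SE 0.264, limma adjusted p = 0.0137), 2.75 for LGG against PBS (adjusted p = 2.14e-07) and -1.43 for RG against LGG (adjusted p = 0.000251). Of 3530 genes it ranked 12 by increase with RG and 14 with LGG. Its exons share 263 bases, 8.5% of their length, with exons of Thra on the opposite strand, a thyroid hormone receptor gene, and strand use in counting is not given in the sources used here, so reads of both genes over these bases cannot be told apart. Thra itself averaged 28.2 ± 5.23 TPM without bacteria (SD, n = 5), 39.5 ± 6.74 TPM with R. gnavus and 66.6 ± 2.98 TPM with L. rhamnosus GG, with differences of 0.47 and 1.23 against PBS.

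Nr1d2 (ENSMUSG00000021775, chromosome 14, 18204054 to 18239127, minus strand) encodes REV-ERB beta, the partner repressor. Its level was 5.89, 6.79, 14.0, 10.6 and 13.1 TPM in PBS mice 1 to 5 and 24.7, 21.4, 20.6, 25.4 and 26.8 TPM in RG. LGG mice 1 to 5 had 37.9, 39.7, 37.5, 25.6 and 35.9 TPM. Both colonized groups lay above all PBS libraries, but LGG mouse 4 fell within the RG range. Nr1d2 rose by 1.22 with RG (SE 0.205, limma adjusted p = 0.0100) and by 1.77 with LGG (adjusted p = 1.05e-06). The step from RG to LGG was smaller than for its partner, at -0.54 for RG against LGG (adjusted p = 0.0297), and was less than the median shift of all genes. This call was lost without any 1 of LGG mice 1, 2, 3 and 5 or RG mice 2 and 3 (adjusted p = 0.0592, 0.0639, 0.0590, 0.0523, 0.0509 and 0.0623). It was at -0.03 with median-of-ratios scaling and at 0.14 with upper-quartile scaling, so the order of RG and LGG is not settled for Nr1d2.

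Ciart (ENSMUSG00000038550, chromosome 3, 95878503 to 95882251, minus strand), also called CHRONO, represses BMAL1 and CLOCK. Its level was low throughout, at 0.304, 0.168, 0.259, 0.348 and 0.181 TPM in PBS and 0.417, 0.671, 0.231, 0.516 and 1.22 TPM in RG. In LGG it was 0.848, 1.91, 1.11, 2.24 and 1.23 TPM. LGG lay wholly above PBS, while RG overlapped both. The mean in LGG was 5.83-fold that in PBS. On the log2(TPM + 1) scale, which compresses such low values, the difference was 0.95 for LGG against PBS (SE 0.208, limma adjusted p = 0.000523), 0.34 for RG against PBS (adjusted p = 0.193) and -0.61 for RG against LGG (adjusted p = 0.0167). With a pseudocount of 0.1 in place of 1 these were 2.10, 0.89 and -1.21. The call between RG and LGG was lost without LGG mouse 4 (adjusted p = 0.0593) and with 2 of the other scalings.

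Bhlhe41 (ENSMUSG00000030256, chromosome 6, 145858243 to 145865558, minus strand) encodes DEC2, an E-box-binding repressor, and was the lowest member. It was at 0.246, 0.194, 0.0989, 0.166 and 0.186 TPM in PBS, at 0.246, 0.953, 0.177, 0.466 and 0.330 TPM in RG and at 0.434, 0.339, 1.06, 0.810 and 0.914 TPM in LGG. All LGG libraries lay above all PBS libraries, and RG overlapped both, with RG mice 2 and 4 inside the LGG range. Its exons share 1280 bases, 19.0% of their length, with Gm43909 on the opposite strand, which was not among the listed genes. How reads over these bases were counted is not given in the sources used here. Bhlhe41 did not pass the filter and has no test with the filter used. With no filter it was among the members called higher in LGG against PBS, at low levels whose counting error cannot be given from TPM.

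Dbp (ENSMUSG00000059824, chromosome 7, 45705088 to 45710203, plus strand) encodes the D-box-binding activator. PBS mice 1 to 5 had 1.15, 1.26, 2.23, 2.18 and 2.68 TPM, and RG mice 7.14, 14.3, 5.42, 10.6 and 10.4 TPM. LGG mice had 31.4, 68.4, 57.9, 27.0 and 35.4 TPM. The lowest RG library was above the highest PBS library, and the lowest LGG library above the highest RG library. Dbp rose by 1.83 with RG (SE 0.276, limma adjusted p = 0.00870, rank 3 of 3530 by increase) and by 3.90 with LGG (adjusted p = 2.84e-08, rank 2). It was -2.07 for RG against LGG (adjusted p = 2.79e-05), rank 4 from the lowest. Within LGG its spread was wide (44.0 ± 18.1 TPM, SD, n = 5), with mice 2 and 3 above the others. Its exons share 539 bases, 18.0% of their length, with Sphk2 on the opposite strand, which encodes a sphingosine kinase. Sphk2 averaged 9.42 ± 1.12 TPM without bacteria, 15.9 ± 3.11 TPM with R. gnavus and 33.0 ± 6.41 TPM with L. rhamnosus GG, with differences of 0.69 and 1.69 against PBS, and how shared reads were counted is not given in the sources used here.

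Tef (ENSMUSG00000022389, chromosome 15, 81802421 to 81826863, plus strand) encodes a second PAR bZIP activator. Its level was 2.57, 2.82, 4.34, 5.40 and 5.79 TPM in PBS and 9.26, 11.7, 6.97, 8.51 and 15.5 TPM in RG. In LGG it was 18.7, 25.9, 25.8, 25.8 and 21.4 TPM. The 3 groups did not overlap, and its means rose 2.48-fold with RG and 5.63-fold with LGG. The log2 difference was 1.14 for RG against PBS (SE 0.218, limma adjusted p = 0.0129), 2.28 for LGG against PBS (adjusted p = 2.07e-07) and -1.14 for RG against LGG (adjusted p = 0.000315). With upper-quartile scaling the last was -0.48 and did not pass (adjusted p = 0.114).

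Nfil3 (ENSMUSG00000056749, chromosome 13, 52967209 to 52981073, minus strand), the repressor that competes with DBP and TEF for D-boxes, did not share this order. It was at 17.2, 14.4, 7.30, 9.92 and 7.95 TPM in PBS and 9.13, 13.1, 10.6, 4.77 and 7.38 TPM in RG. LGG mice had 6.56, 2.56, 7.36, 8.99 and 11.8 TPM. All 3 groups overlapped. The differences against PBS were -0.30 with RG (SE 0.325, limma adjusted p = 0.446) and -0.60 with LGG (adjusted p = 0.111), and 0.30 for RG against LGG (adjusted p = 0.451). The LGG difference passed without LGG mouse 5 (-0.78, adjusted p = 0.0452), with median-of-ratios scaling (-1.36, adjusted p = 0.000364), with upper-quartile scaling (-1.45, adjusted p = 0.000238) and with the trend on transcript length and GC content removed (-0.81, adjusted p = 0.0280). RG against LGG passed as well with median-of-ratios and upper-quartile scaling (0.74 and 0.89, adjusted p = 0.0305 and 0.0139). Whether Nfil3 was lower with LGG thus depends on the scale.

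**Figure D2:**
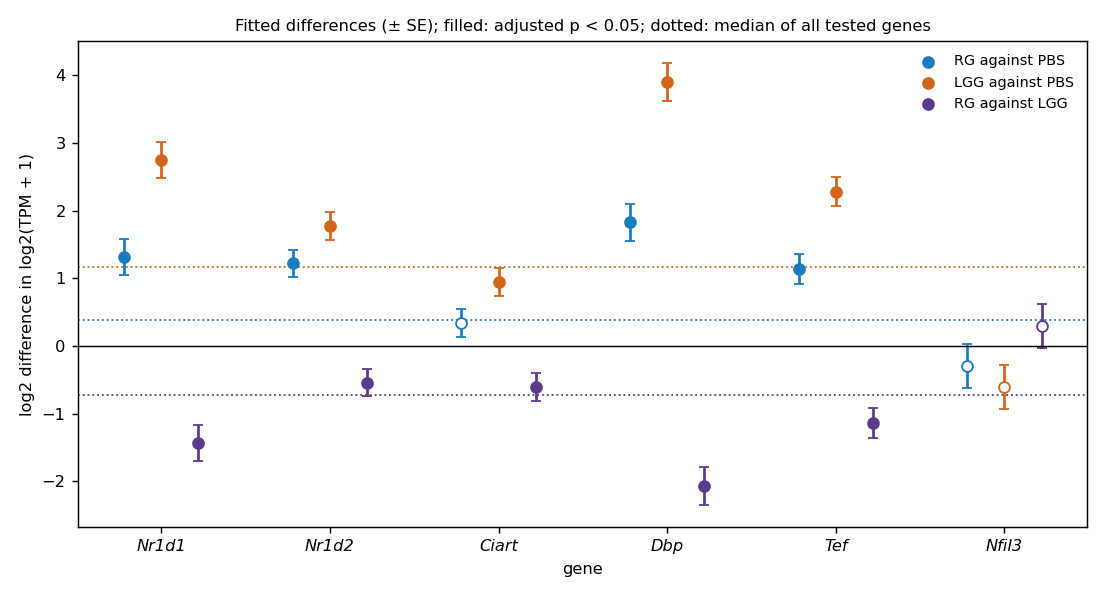
Log2 difference in log2(TPM + 1) (y axis) for the 6 tested genes (x axis) in the 3 comparisons, with SE bars, filled points for adjusted p under 0.05 and dotted lines at the median of 3530 genes. Dbp stands farthest from the dotted lines (1.83, 3.90 and -2.07), and Nfil3 lies on the opposite side of 0 from the other genes in each comparison.

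Groups did not overlap for 4 of the 6 tested members in RG against PBS, all higher in RG, where 13.0% of tested genes were so placed and 2.72% lay wholly lower. In LGG against PBS this held for 5 of 6, where 53.0% of tested genes were and 14.9% lay wholly lower. Ciart is among these 5, although it passed the filter almost wholly through LGG libraries. In RG against LGG groups did not overlap for 3 of 6 (Nr1d1, Dbp and Tef, lower in RG), where 36.4% were so placed and 4.08% lay wholly higher. Against the median of all genes, Dbp stood 1.46 higher with RG and 2.73 higher with LGG, Nr1d1 0.94 and 1.58, Tef 0.76 and 1.11, and Nr1d2 0.85 and 0.59. Ciart stood at -0.04 and -0.22 against that median, and Nfil3 at -0.68 and -1.77.

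The RG calls depended on which libraries were kept together. Nr1d1, Nr1d2, Dbp and Tef passed whichever single library was omitted. Omitting 3 libraries at once (mouse 1 of PBS, mice 2 and 5 of RG) was also tried, because earlier work on these data had found them apart. The 4 genes then stood at 0.91, 1.06, 1.48 and 0.75, and none passed (limma adjusted p = 0.107 for each). No gene of the table passed then, and 965 had an unadjusted p under 0.05. PBS mouse 1 had the highest summed level of 6 pancreas, liver and kidney markers, at 656 TPM against 54.3 TPM in the lowest library. In RG against PBS the summed level of 7 listed T cell markers ranged from 20.4 to 400.0 TPM in RG, highest in RG mouse 2, and from 9.33 to 34.0 TPM in PBS, and the part of these cells in the result was not tested. RG mouse 5 had 18.4% of all TPM in mitochondrially encoded genes and was highest in its group for Nr1d1, Nr1d2, Tef and Ciart. The part of these transcripts in the result was not tested either.

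The ratio of 1 transcript to another within a library does not depend on how that library was scaled. The log2 ratio of Dbp to Nfil3 was -3.90, -3.51, -1.71, -2.19 and -1.57 in PBS mice 1 to 5, so that Nfil3 was the more abundant in each. It was -0.36, 0.12, -0.97, 1.15 and 0.49 in RG and 2.26, 4.74, 2.98, 1.59 and 1.59 in LGG. The groups did not overlap, and Dbp exceeded Nfil3 in every LGG mouse and in 3 of 5 RG mice. The ratio of Nr1d1 to Nfil3 had group means of 0.18 ± 1.18, 1.91 ± 0.79 and 3.73 ± 0.79 (SD, n = 5) for PBS, RG and LGG, and the highest PBS library (1.22) met the lowest RG library (1.19). For Tef to Nfil3 the means were -1.44 ± 1.04, 0.23 ± 0.70 and 1.81 ± 0.92, with PBS reaching -0.46 and RG starting at -0.61. As combinations of members these ratios are given with no test.

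**Figure D3:**
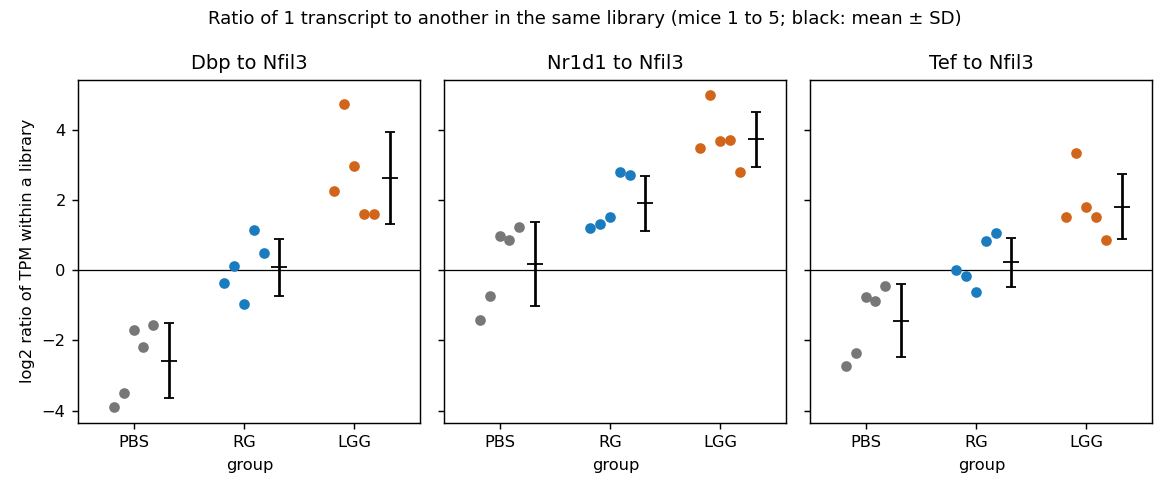
Log2 ratio of TPM within each library (y axis) of Dbp, Nr1d1 and Tef to Nfil3, by group (x axis), with mice 1 to 5 from left to right and the mean ± SD in black. For Dbp to Nfil3 the PBS libraries end at -1.57, RG spans -0.97 to 1.15 and LGG starts at 1.59.

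Mice of a group also differed from each other in several members at once. PBS mice 1 and 2 were the lowest of their group in Nr1d1, Nr1d2, Dbp and Tef and the highest in Nfil3. Their Dbp to Nfil3 ratios (-3.90 and -3.51) lay apart from those of the other 3 PBS mice (-2.19 to -1.57). In LGG, mouse 2 had the highest Dbp, Nr1d2 and Tef and the lowest Nfil3, though its Tef (25.9 TPM) barely exceeded that of mice 3 and 4 (25.8 TPM). Its Nr1d1 (80.8 TPM) was instead below that of LGG mice 3, 4 and 5, and its Bhlhe41 (0.339 TPM) was the lowest of the group. In RG the mice were ordered otherwise, and RG mouse 2 had both the highest Dbp and the highest Nfil3. With PBS mice 1 and 2 left out, a choice made after their values were seen, Nr1d1, Nr1d2, Dbp and Tef still rose with RG (0.89, 0.87, 1.59 and 0.84, limma adjusted p of 0.0328 to 0.0398), and Nfil3 was at 0.04.

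**Figure D4:**
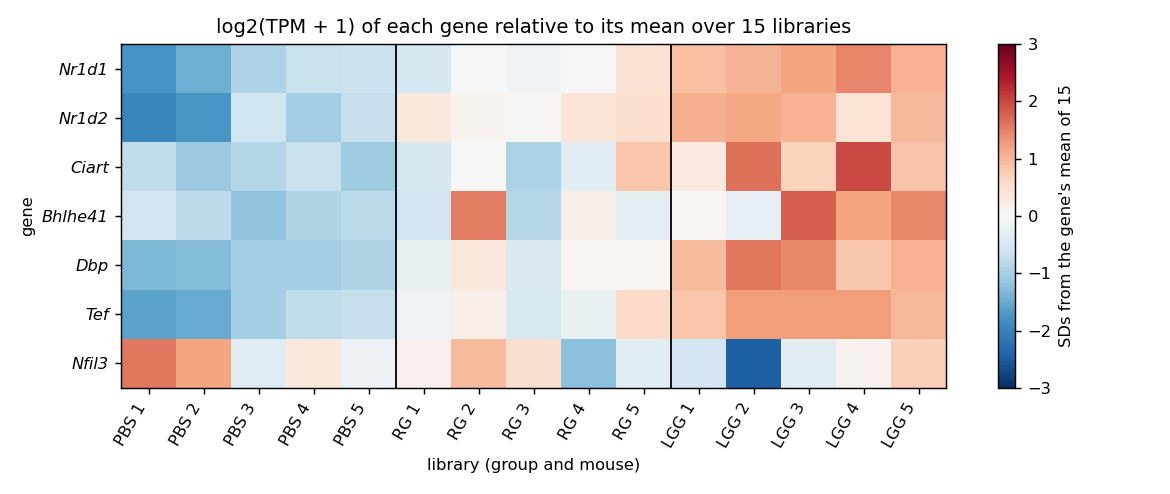
Colours give log2(TPM + 1) of each gene (rows) in each library (columns) as SDs from the gene's mean over 15 libraries. PBS mice 1 and 2 are lowest for Nr1d1, Nr1d2, Dbp and Tef and highest in their group for Nfil3 (17.2 and 14.4 TPM), and LGG mouse 2 is lowest of all for Nfil3 (2.56 TPM).

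The genes whose profiles over the 15 libraries were most like those of the members included other members. Pearson's r of log2(TPM + 1), given as a description of likeness and dominated by the differences between groups, was 0.979 between Nr1d1 and Tef, each the closest of 3416 named genes to the other. With group means removed it was 0.816. Among the 3 closest to Nr1d2 were Tef and Dbp (0.924 and 0.922). With group means removed these fell to 0.567 and 0.581, and r between Nr1d1 and Dbp fell from 0.942 to 0.389. Among the 3 closest to Dbp were the amino acid transporter gene Slc43a2 (0.974) and the sorting nexin gene Snx25 (0.970). Slc13a2, a citrate transporter gene of the brush border, was among the 3 closest to both Nr1d1 (0.974) and Tef (0.970), and it was at 52.9, 106 and 299 TPM on average in PBS, RG and LGG. Ciart was closest to Mov10, Pigo and Itpr3 (0.954, 0.953 and 0.953). Over all 15 libraries Nfil3 had no such close match, with Psmg3, Rbp4 and Mgp at 0.800, 0.799 and 0.795. With group means removed these were 0.804, 0.769 and 0.741, above the 0.648 and 0.615 of Slc43a2 and Snx25 with Dbp. The r of Nfil3 over the 15 libraries was negative with each of the other tested members (-0.621 to -0.450).

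Of 24 other genes of the clock loop, 4 were in the table: Usp2, Csnk1d, Nono and Wee1. Bmal1 (Arntl), Clock, the Per and Cry genes, Hlf and the Ror genes were not analysed here. With LGG all 4 rose, where 54.7% of all genes did, with a median of 1.32 against 1.17 for all genes. With RG 2 rose, Usp2, a clock-controlled ubiquitin protease (0.65, limma adjusted p = 0.0339), and Csnk1d, the casein kinase that marks PER proteins (0.51, adjusted p = 0.0436), while Nono (0.57) and Wee1 (0.40) did not pass. Neither RG call held with PBS mouse 2, 3 or 5 or RG mouse 2 or 3 left out, nor with median-of-ratios or upper-quartile scaling, and in LGG their levels were 16.0 ± 4.97 TPM for Usp2 and 64.2 ± 12.6 TPM for Csnk1d. All 4 were lower in RG than in LGG (median -0.78).

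Genes known as targets of PAR bZIP factors in mouse liver or intestine were examined next. The lists that follow share genes and are not independent counts: Slc15a1 is a PAR bZIP target, a rhythmic absorptive gene and an enterocyte marker, Abcb1a is a PAR bZIP target and a rhythmic absorptive gene, Sis is a rhythmic absorptive gene and an enterocyte marker, Apob and Mttp are both rhythmic and lipid uptake genes, and Usp2 is both a clock loop gene and a PAR bZIP target. Over all tested genes 22.8% rose with RG and 54.7% with LGG, and in RG against LGG 53.5% were lower. Each count is to be read against these shares. Of 20 such genes 14 were listed and 11 tested. With RG 5 rose and none fell (median 0.61, against 0.38 for all genes), among them Slc15a1, the peptide transporter PEPT1 (1.08), the xenobiotic receptor gene Nr1i2 (0.61) and the carboxylesterase gene Ces2a (1.33). With LGG 10 rose and none fell (median 1.73, against 1.17), among them Cyp3a13 (2.23), Slc15a1 (2.82) and Nr1i2 (1.51), and the glutathione transferase gene Gsta3 was at -0.16 (limma adjusted p = 0.592). In RG against LGG 9 were lower and 2 did not pass. Of 13 tested absorptive genes known to be rhythmic in rodent intestine, 6 rose with RG and 13 with LGG, with medians of 0.86 and 2.47 against 0.38 and 1.17 for all genes. The sodium-glucose transporter gene Slc5a1 rose by 1.06 and 2.87. Of 15 genes for lipid uptake and storage in enterocytes, a process under NFIL3 in mouse, only 6 were listed, and all 6 were tested. Of these 5 rose with RG and 6 with LGG (medians 0.61 and 1.95, against 0.38 and 1.17), including Apob, the chylomicron protein (0.56 and 2.25). Nfil3 itself did not pass, and a relation of these genes to it was not tested. Of 8 genes known to be repressed by REV-ERB proteins only Nfil3 was in the table.

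Several lists of cell type markers moved with the same comparisons, and their counts are to be read beside the shares of all tested genes. With RG 22.8% rose and 4.08% fell, and with LGG 54.7% rose and 16.5% fell. The 9 listed enterocyte markers of 12 all rose with both bacteria, and their summed level was 2140 to 3370 TPM in PBS, 4350 to 5230 in RG and 10800 to 15300 in LGG. The 10 Paneth cell markers summed to 50500 to 65500 TPM in PBS, 49500 to 61000 in RG and 1000 to 12700 in LGG, where all 10 fell. The 3 goblet cell markers listed of 8 summed to 17400 to 21700, 8520 to 18000 and 4060 to 10100 TPM, and 1 fell with RG and 3 with LGG. Of the 7 listed smooth muscle markers none passed in any comparison (limma, with 1, 0 and 0 at an unadjusted p under 0.05), with sums of 785 to 2630, 713 to 981 and 721 to 1790 TPM. Of the 4 listed enteroendocrine and tuft cell markers 1 rose with RG and 2 with LGG. Of the 2 listed stem and cycling cell markers 1 rose with RG and 2 with LGG. No marker of these lists was at 0 in any library. In whole tissue a change in the share of a cell type and a change in RNA per cell cannot be told apart, and the part of these shifts in the clock gene results was not tested.

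The listed genes summed to 48.0 to 66.1% of all TPM and were lowest in LGG, and the rule that chose them was not stated. Scaling therefore mattered. With median-of-ratios scaling the median of all genes was 0.07, 0.40 and -0.23 in RG against PBS, LGG against PBS and RG against LGG, and with upper-quartile scaling 0.14, 0.30 and -0.07. The share of called genes that were higher went from 84.8, 76.8 and 13.3% on the deposited scale to 6.86, 55.4 and 50.7% and to 22.0, 50.9 and 71.5%. Nr1d1, Nr1d2, Dbp and Tef rose in both PBS comparisons under each scaling. Their LGG differences were smaller under median-of-ratios and upper-quartile scaling. Nr1d2 went from 1.77 to 0.95 and 0.85, Tef from 2.28 to 1.51 and 1.41, Nr1d1 from 2.75 to 1.92 and 1.82, and Dbp from 3.90 to 3.17 and 3.07. Their RG differences moved less, to 0.91 and 0.98 for Nr1d2, 0.86 and 0.93 for Tef, 1.00 and 1.07 for Nr1d1 and 1.61 and 1.68 for Dbp. Against LGG, RG was lower in Dbp and Nr1d1 under each scaling (-1.39 and -0.74 at the smallest), whereas Nr1d2 turned from -0.54 to 0.14.

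**Figure D5:**
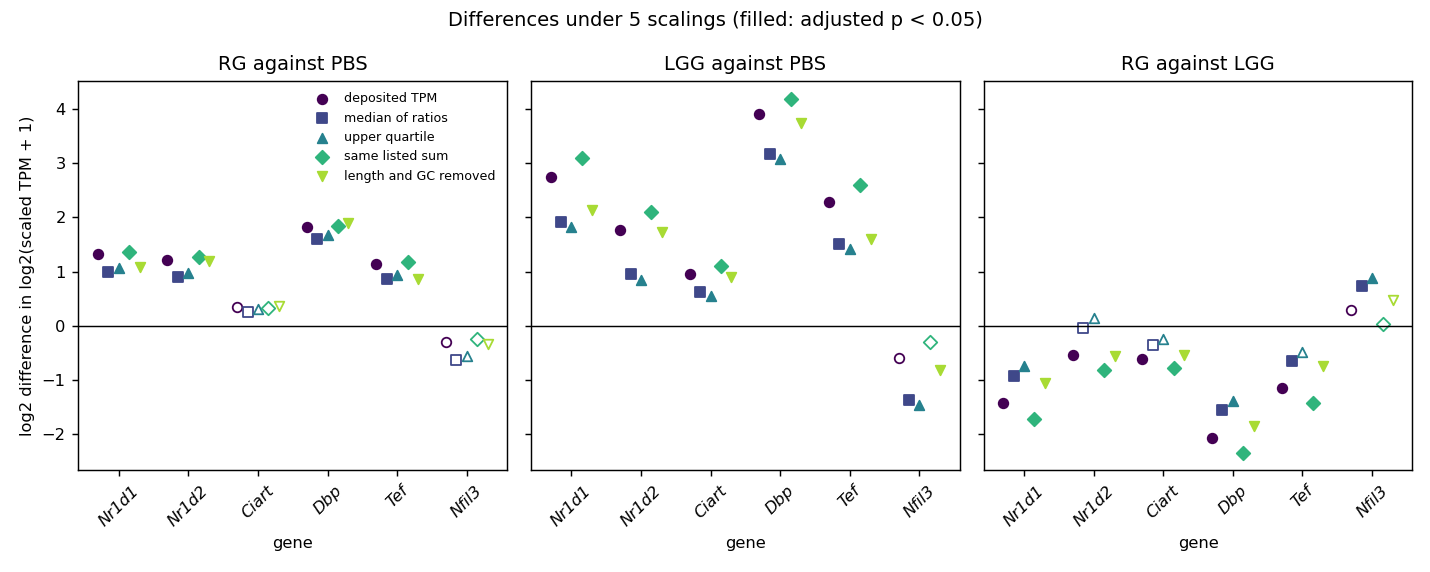
Log2 difference (y axis) of the 6 tested genes (x axis) in the 3 comparisons under 5 scalings, with filled symbols for adjusted p under 0.05. Nr1d1, Nr1d2, Dbp and Tef stay above 0 against PBS throughout, Nfil3 in LGG against PBS passes under 3 of the 5, and Nr1d2 in RG against LGG lies between -0.82 and 0.14.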

How the data were processed

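The authors deposited 1 table of TPM for 4178 genes in 15 ileal libraries, 1 per mouse. Per the submitters' processing notes the build was GRCm38 (mm10), and no aligner or counting tool is named in the sources used here. Per the labels' protocols, RNA was purified with an RNeasy Plus kit before NEBNext Ultra II library preparation. TPM keeps no depth, so no counting error can be given. The 7 genes, the gene lists and the tests were chosen with earlier results of these data known.

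Columns were matched to mice by the labels. Testing required a TPM of 1 or above in 5 of the 15 libraries (3530 genes tested, 648 not). limma-trend with robust shrinkage (limma 3.58.1, R 4.3.3) was fitted to log2(TPM + 1) with 3 groups in 1 model, and p-values were adjusted over all genes tested. P-values measure the spread between mice. Simulated data for RG against PBS had 3530 genes drawn independently, of which 200 rose in RG and none fell. Of genes changed 1.5-fold 29.0% were recovered and of those changed 2-fold 74.0%, and 9.65% of calls were false. In the real comparison 948 genes passed, in both directions, so these rates do not carry over to its calls. Named genes were the 7, listed clock loop genes, up to 3 of smallest p from other lists, and the 3 genes of highest Pearson r with each tested member, of which 1 gene is not reported here. Alternatives were other pseudocounts, filters and scalings, a length and GC correction, a replicate block, 2-group fits, non-robust shrinkage, libraries left out and exact permutation tests. Gene positions and transcript lengths came from GENCODE M21 (4173 of 4178 identifiers matched), and promoter sequences from RefSeq, GRCm38.p6.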

Additional observations from a re-analysis of the deposited data

Results flagged for a closer look

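Nr1d2 in LGG mouse 4 stood apart from its group, at 25.6 TPM against 35.9 to 39.7 TPM in the other 4 LGG mice. It was the single value so placed among 21 groups of 5 values (7 genes in 3 groups), where chance gives about 1 in 20. The same mouse had the lowest Dbp (27.0 TPM) but the highest Nr1d1 (118 TPM) and Ciart (2.24 TPM) of its group. Its summed Paneth and enterocyte markers were the lowest in LGG, at 1000 and 10800 TPM. Without it the Nr1d2 difference against PBS was 1.88 and RG stood at -0.65 relative to LGG, and both passed (limma adjusted p = 1.05e-06 and 0.0119).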

How the results depend on the processing

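The number of changed members kept within 1.5 times its value (4, 5 and 5 in RG against PBS, LGG against PBS and RG against LGG) except in 3 cases. It was 0 in RG against PBS without 3 libraries (mouse 1 of PBS, mice 2 and 5 of RG), 0 when LGG mouse 4 was omitted too, and 3 in RG against LGG with upper-quartile scaling. With 1 library left out it ranged from 4 to 4, 5 to 6 and 4 to 5. Of the other clock loop genes 2 changed in RG against PBS, and 0 did with a pseudocount of 5, median-of-ratios or upper-quartile scaling, the length and GC trend removed, or either of these sets of libraries or PBS mice 1 and 2 left out (the last added after the data were seen). It was 1 with no filter and 1 with only 2 groups fitted, and 0 to 4 with 1 library left out (0 when the omitted library was mouse 2, 3 or 5 of PBS or mouse 2 or 3 of RG, and 4 for mouse 4 of RG). In LGG against PBS it was 3 with upper-quartile scaling and 4 under each other alternative run, and in RG against LGG it was 1 with median-of-ratios scaling, 0 with upper-quartile scaling and 4 to 4 with 1 library left out. Nfil3 in RG against PBS turned to 0.04 without PBS mice 1 and 2, and Nr1d2 in RG against LGG to 0.14 with upper-quartile scaling. Where a cause is not given by fewer samples or genes, the cause was not tested. Of the alternative values of single members 509 kept direction and call, 19 lost the call, 7 gained it and 2 reversed. Many alternatives could not change the direction, so the first count overstates stability. Omitting a library of the group not compared, the replicate block and non-robust shrinkage leave the difference itself unchanged and alter only its p-value.

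Mouse numbers are shared by the groups but name different animals. Deviations of same-numbered mice correlated at -0.455 to 0.288 (4 of 15 pairs over 0.1), and a library was closest to its own number in 6 of 30 combinations. With the mouse number as a replicate block the changed members were 4, 5 and 5, the other clock genes 0 in RG against PBS, and 174 genes in all passed there.

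Over all genes, 948 passed in RG against PBS. This was 612 and 605 with median-of-ratios and upper-quartile scaling, 315 after the length and GC correction, 383 with 2 groups fitted, 358 without PBS mice 1 and 2, 0 and 2 without the sets of 3 and 4 libraries, and 40.0 (without PBS mouse 3) to 1594 (without RG mouse 4) with 1 library left out. It was 124, 150, 177, 437 and 624 without PBS mouse 5, RG mouse 2, RG mouse 3, PBS mouse 1 and PBS mouse 4. With no filter 6 members rose in LGG against PBS, Bhlhe41 being the one added. Depth is unknown, so the counting error of Ciart and Bhlhe41 at their low TPM cannot be given.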

Other observations

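STAT3, a transcription factor that acts downstream of interleukin 22 from innate lymphoid cells, is known in mouse to link the microbiota to REV-ERB alpha and NFIL3. Of 14 genes of this axis 6 were listed and 4 tested, of which 2 rose with RG and 3 with LGG, where 22.8% and 54.7% of all tested genes did. Socs3, a feedback inhibitor that STAT3 induces, rose by 1.09 with RG and 1.32 with LGG, and Stat3 by 0.60 and 1.48 (limma adjusted p = 0.0240, 0.000289, 0.0300 and 1.12e-06). Il22ra1, the interleukin 22 receptor gene, was at 0.42 with RG (adjusted p = 0.0533) and rose by 1.39 with LGG. Medians of the 4 were 0.60 and 1.36, against 0.38 and 1.17 for all genes. Beside them Nr1d1, the REV-ERB alpha gene, rose by 1.32 with RG and 2.75 with LGG. Nfil3 was at -0.30 and -0.60 and did not pass. A relation of the STAT3 axis to either gene, or its direction, was not tested. Of 4 tested glucocorticoid-responsive genes 1 rose with RG, the receptor gene Nr3c1 (0.59), and 3 with LGG, among them Nr3c1 (1.35) and Cdkn1a (1.47), where 22.8% and 54.7% of all genes rose. Their medians were 0.28 and 1.41, the first below the 0.38 of all genes. Both listed immediate early genes rose with both bacteria, Jun by 0.50 and 1.43 and Junb by 0.73 and 1.56, beside the same shares and all-gene medians of 0.38 and 1.17.

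Cyp2b10, a detoxification gene of the PAR bZIP target list that was not tested because of low TPM, was chosen after its values were seen. It was at 45.6 TPM in LGG mouse 2 and at 1.95 TPM or less in the other 14 libraries. LGG mouse 2 also had the highest Dbp (68.4 TPM) and the lowest Nfil3 (2.56 TPM) of all 15 libraries. Cyp3a11, Cyp3a13 and Slc15a1 of that list were highest in this mouse too. Por, Alas1, Ces1g, Abcb1a and Usp2 were instead highest in LGG mouse 4, which had the lowest Dbp of its group (27.0 TPM). The summed enterocyte markers were also highest in LGG mouse 2 (15300 TPM). A relation of Cyp2b10 to Dbp or Nfil3 was not tested.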
